A study of Mus musculus with 7 samples.

Results

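Deubiquitinases cleave ubiquitin from proteins, so they set how long a modified protein keeps its mark and often whether it is degraded. The genes described here were chosen by symbol. They are all entries whose symbol starts with Usp or Otud followed by a digit or letter, together with Uchl1, Uchl3, Uchl5 and Bap1, and without Uspl1. The rule took 68 of the 25912 listed entries, of which 56 are Usp symbols, 8 are Otud symbols and 4 belong to the ubiquitin C-terminal hydrolase (UCH) family. The symbol rule also takes Usp6nl, which encodes a Rab GTPase-activating protein, and Usp39, whose product lacks deubiquitinating activity.

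The largest family, the ubiquitin-specific proteases (Usp), and the UCH and ovarian tumor (Otud) families are cysteine proteases that differ in the chains and substrates they act on. In the oocyte, meiotic progress depends on timed destruction of cyclin B and securin by the anaphase-promoting complex and the proteasome, and deubiquitinases act against that tagging or recycle ubiquitin from it. A fully grown oocyte makes almost no new mRNA, so the level of a transcript during maturation mainly reflects storage, polyadenylation and decay of mRNA made earlier.

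Fully grown germinal vesicle (GV) oocytes, arrested before meiosis resumes, were compared with oocytes at metaphase II (MII), which were matured with the solvent DMSO or with BYBX, a fluorescent ligand that binds RNA G-quadruplexes (rG4s). The Smart-seq2 libraries held 10 oocytes each, with 2 libraries of GV oocytes, 3 of MII oocytes with DMSO and 2 of MII oocytes with BYBX. The oocytes came from gonadotropin-primed, 4-week-old C57BL/6 females. The labels give the GV oocytes as Control with treatment NO, the DMSO group as Control and the BYBX group as Treat, whereas the methods state that GV and MII controls received DMSO. The labels give no dose of BYBX, and 1 μM is named in the legends of the comparisons that draw on these RNA data. The labels call the treated oocytes MII without saying how that stage was scored.

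Values are FPKM (mapped fragments per kilobase of exon, relative to the fragments mapped in the library), which the authors scaled to an added ERCC spike-in. They stand for polyadenylated mRNA in a library of 10 oocytes, since cDNA was primed with oligo-dT, and loss of a transcript, a shorter poly(A) tail and less RNA recovered per oocyte cannot be told apart. Summed over all entries, libraries held 402113 to 489569 FPKM in GV, 109732 to 127254 in MII with DMSO and 201482 to 246710 in MII with BYBX. All 12 oocyte markers listed were at 1 FPKM or more in the GV and BYBX libraries. In the DMSO libraries 11 of 12 were, the exception being Figla, an oocyte transcription factor, at 0.0324 to 0.114 FPKM. The sum of the oocyte markers was 11805 to 15485 FPKM in GV, 1903 to 2118 with DMSO and 6022 to 6351 with BYBX. A list of 12 granulosa and cumulus markers summed to 8.89 to 16.5, 1.78 to 2.28 and 3.81 to 4.16 FPKM in the same order. In GV the sum came mainly from Inha (5.48 and 1.94 FPKM), Cyp19a1 (4.49 and 2.19) and Nr5a2 (4.43 and 3.24), which were at or below 0.221, 1.58 and 0.372 FPKM with DMSO, whereas Amh, Foxl2, Has2 and Ptx3 were at or below 0.138 FPKM in every library. Leukocyte markers summed to at most 1.72 FPKM, and erythrocyte markers to at most 1.13 FPKM. The part of the granulosa markers in the results was not tested. Neither the labels nor the methods say whether the libraries of a group came from separate animals, so p-values measure the spread between these libraries.

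Because BYBX binds rG4s, the longest GENCODE transcript of each member was searched on the sense strand for 4 runs of GGG separated by 1 to 7 bases each. All 68 members matched a transcript. Of the 51 members that passed the filter on low values (a mean of the 3 group means of at least 1 FPKM), 10 held the motif, which is 19.6%, and of the 8850 matched symbols among all those tested, 18.5% held it. The motif lay in the 5′ UTR of 4 tested members, in the coding sequence of 3 and in the 3′ UTR of 4, and Usp20 had it in both of the last 2 regions. The motifs of the 4 members that are also among the largest or smallest changes below are shown, 5′ to 3′ on the transcript, with the 4 G runs that define each match in capitals.
Usp5: GGGatGGGttGGGgGGG
Otud5: GGGacacGGGtggatGGGcctctGGG
Usp19: GGGgcctGGGcctctGGGtccttGGG
Usp37: GGGactgacaGGGatgcttaGGGcaGGG
The Usp5 match is in exon 4 of 20 in the coding sequence, at chr6:124824876-124824892 on the minus strand. The Otud5 match is in the 3′ UTR, in exon 9 of 9, at chrX:7875308-7875333 on the plus strand. The Usp19 match is in the coding part of exon 27 of 27, at chr9:108501244-108501269 on the plus strand. The Usp37 match is in the 3′ UTR, in exon 24 of 24, at chr1:74438463-74438490 on the minus strand. Coordinates are on GRCm38 (mm10). The 4 genes differ in response. Among members of at least 10 FPKM in a group, Usp5 and Otud5 had 2 of the 8 largest falls from GV to MII with DMSO, and Usp19 and Usp37 had 2 of the 8 smallest. A match in sequence does not show that a quadruplex forms in the oocyte.

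Deubiquitinase mRNA was lower at MII than in GV oocytes on the deposited scale, and nearer to GV with BYBX than with DMSO. Summed over the 68 members, the level was 2181 and 1644 FPKM in the GV libraries, 426, 438 and 473 FPKM with DMSO, and 1084 and 882 FPKM with BYBX. The group means were 1913 ± 379 (SD, n = 2), 446 ± 24.4 (SD, n = 3) and 983 ± 143 (SD, n = 2) FPKM, and the groups did not overlap. As a share of all listed FPKM the members took 0.409% to 0.445% in GV, 0.354% to 0.388% with DMSO and 0.438% to 0.439% with BYBX. In GV, 53 members had a mean of at least 1 FPKM and 32 a mean of at least 10 FPKM. With DMSO these numbers were 38 and 11, and with BYBX 49 and 16. Of the members at 1 FPKM or more in GV, 15 were below 1 FPKM in MII with DMSO, and 11 of these 15 were at or above 1 FPKM in MII with BYBX. The same counts were not made over all entries, so they are not read as particular to the members. The summed FPKM of all entries had means of 445841 in GV, 120184 with DMSO and 224096 with BYBX.

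The same 5 members led in every group, in a changing order. Uchl1, a UCH enzyme long known for its abundance in neurons and oocytes, was at 844 and 606 FPKM in GV, at 27.8, 43.4 and 44.0 FPKM with DMSO, and at 424 and 272 FPKM with BYBX. By mean, it went from the most abundant member in GV to the fifth in MII with DMSO, and was first with BYBX. Usp2, a regulator of cyclin D1 and of the circadian clock, was second by mean in each group, at 141 and 125 FPKM in GV, 42.9, 50.7 and 56.1 FPKM with DMSO and 85.6 and 73.4 FPKM with BYBX. Usp46, which works with WD40-repeat partners, was at 142 and 78.8 FPKM in GV, 62.0, 29.9 and 42.7 FPKM with DMSO and 43.2 and 73.9 FPKM with BYBX. The DMSO and BYBX libraries overlapped for Usp46, unlike those of Usp2 and Uchl1. Usp46 was above Usp2 in the first GV, the first DMSO and the second BYBX library. Uchl3, a UCH enzyme that also removes the ubiquitin-like protein Nedd8, was at 57.9 and 80.9 FPKM in GV, 46.6, 57.8 and 72.8 FPKM with DMSO and 71.5 and 54.6 FPKM with BYBX. Usp28, a checkpoint enzyme that stabilizes Myc, was at 68.4 and 53.1 FPKM in GV, 39.4, 46.9 and 52.3 FPKM with DMSO and 58.0 and 45.4 FPKM with BYBX. In MII with DMSO the ranges of each of these 5 members and its neighbor in the order overlapped across libraries. Within each DMSO library, however, Uchl3 was above Usp2 and Usp2 above Usp28, and the places of Usp46 and Uchl1 changed between libraries. In GV and with BYBX, Uchl1 lay above every other member in both libraries, and Uchl1 alone made up 36.9% to 38.7% of the summed FPKM of the members in GV, 6.54% to 9.92% with DMSO and 30.8% to 39.1% with BYBX.

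From GV to MII with DMSO, 48 of the 51 tested members fell and none rose, by limma on log2(FPKM + 1) at a Benjamini-Hochberg adjusted p under 0.05 over all 9202 tested entries. No member had a positive difference, so at an unadjusted p under 0.05 the count higher was also 0. Among all entries 88.3% fell and 0.272% rose, so the share of members that fell is near the background. The median log2 difference was -1.46 over the members and -1.83 over all entries. Equal totals moved the median of all entries to -0.56 and median centering to 0.47, so directions given below are those of the deposited scale. With equal totals 25 of the 51 members had a positive difference, beside 3479 of all 9202 entries. After centering 36 members had one, beside 5780 entries. All of these members are named with the scaling checks. What varied was the depth of the fall. The share of the GV mean still present in MII with DMSO ran from 0.520% for Usp4 to 85.1% for Uchl3, with a median of 25.4%, and 9 members kept less than 5% while 7 kept more than 50%. Such shares were not counted over all entries. The lowest rest on small DMSO means, 0.263 FPKM for Usp4 and 0.197 FPKM for Usp39. Because 1 FPKM was added before the log, log2 differences understate falls to values near or below 1 FPKM. The 3 members that did not pass the test were Uchl3, Usp28 and Usp21.

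**Figure D1:**
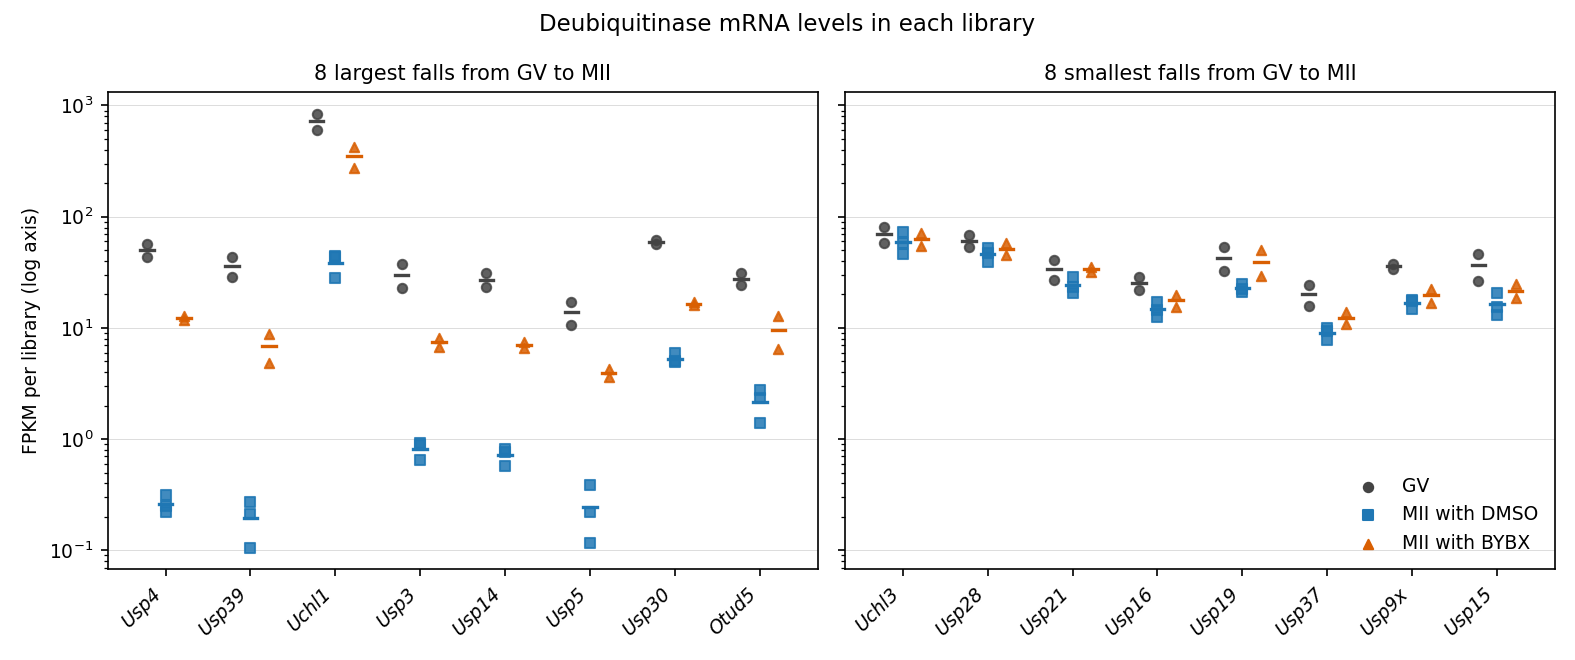
FPKM in each library (log axis) for the 8 members with the largest falls and the 8 with the smallest falls from GV to MII with DMSO on the deposited scale, among members of at least 10 FPKM in a group; points are libraries (2 GV, 3 MII with DMSO, 2 MII with BYBX) and bars are group means. In the left panel the DMSO libraries lie below the BYBX libraries and both below GV for every gene, with Usp4 at 0.223 to 0.313 FPKM with DMSO. Separation of groups was not counted over all entries. In the right panel the groups lie closer together, and all 3 overlap for Uchl3. Some groups overlap in every other gene there except Usp37, whose mean goes from 20.1 FPKM in GV to 9.05 FPKM with DMSO.

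The largest falls were those of 2 members linked to the spliceosome. Usp4, which acts on spliceosomal proteins and shares a domain layout with Usp11 and Usp15, was at 57.2 and 43.9 FPKM in GV, 0.223, 0.313 and 0.253 FPKM with DMSO and 12.7 and 11.8 FPKM with BYBX. Its log2 difference from GV to MII with DMSO was -5.34 ± 0.23 (SE; limma adjusted p = 3.15e-10), and it was 3.40 ± 0.23 higher with BYBX than with DMSO (limma adjusted p = 7.67e-08). Usp39, a component of the spliceosomal tri-snRNP, was at 43.2 and 29.0 FPKM in GV, 0.214, 0.106 and 0.270 FPKM with DMSO and 4.88 and 8.82 FPKM with BYBX. The 3 groups of both genes were apart in every library, in the order GV, BYBX, DMSO, but such separation was not counted over all entries. The log2 difference of Usp39 was -4.93 ± 0.27 from GV to MII with DMSO and 2.67 ± 0.27 for BYBX against DMSO, and with BYBX it kept 19.0% of its GV mean, the lowest share of the 51 tested members. Usp10, which binds the stress granule proteins G3bp1 and G3bp2, fell by 2.79 on the log2 scale and was 1.22 higher with BYBX. G3bp1 and G3bp2 themselves were at 48.7 and 122 FPKM in GV, 15.9 and 56.3 FPKM with DMSO, and 31.3 and 81.9 FPKM with BYBX. Otud4, an RNA-binding deubiquitinase, fell by 1.29, and its BYBX difference of 0.47 did not pass the test (adjusted p = 0.0779). Of the 5 members grouped as linked to RNA (Usp39, Usp4, Usp15, Usp10 and Otud4), all 5 fell and 3 were higher with BYBX, where 88.3% of all entries fell and 65.2% were higher. The fall of Usp15 did not pass without the first GV library (-0.70, adjusted p = 0.0856).

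Usp14, Uchl5 and Usp5, which trim or recycle ubiquitin chains, all fell and were higher with BYBX than with DMSO, beside 88.3% and 65.2% of all entries. Usp14, which trims chains on the proteasome, was at 31.0 and 23.2 FPKM in GV, 0.572, 0.819 and 0.765 FPKM with DMSO and 6.65 and 7.52 FPKM with BYBX. Uchl5, the other cysteine deubiquitinase of the proteasome, was at 12.1 and 9.90 FPKM in GV, 0.444, 0.535 and 0.659 FPKM with DMSO and 1.66 and 3.06 FPKM with BYBX. Usp5, which takes apart unanchored chains, was at 17.0 and 10.6 FPKM in GV, 0.391, 0.222 and 0.116 FPKM with DMSO and 4.29 and 3.64 FPKM with BYBX. In all 3 genes the groups were apart and the DMSO libraries were below 1 FPKM. Separation of groups was not counted over all entries, so it is not read as particular to these genes. On the log2 scale the falls were -4.02 ± 0.23 for Usp14, -2.95 ± 0.23 for Uchl5 and -3.54 ± 0.24 for Usp5, and with BYBX the genes were 2.23 ± 0.23, 1.09 ± 0.23 and 2.0 ± 0.24 higher than with DMSO. Against GV all 3 were still lower with BYBX, beside 69.2% of all entries, and Uchl5 kept 21.5% of its GV mean. Usp13, the closest relative of Usp5, did not pass the filter and was at or below 1.29 FPKM in every library.

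The receptor Adrm1, through which Uchl5 docks, was at 270, 4.36 and 77.9 FPKM in the means of GV, DMSO and BYBX. Psmd14, the metalloprotease that removes whole chains at the proteasome lid, was at 74.6, 0.989 and 18.6 FPKM. Among base subunits of the regulatory particle, Psmd2 was at 65.6, 14.8 and 26.7 FPKM and Psmd1 at 32.2, 21.0 and 27.3 FPKM. Adrm1, Psmd14 and Psmd2 fell and were higher with BYBX than with DMSO, beside 88.3% and 65.2% of all entries. Psmd1 did not pass the test in either comparison (limma adjusted p = 0.0770 and 0.248). Ubb, a polyubiquitin gene that feeds the pool these enzymes replenish, was at 1091 and 969 FPKM in GV, 64.8, 69.3 and 85.5 FPKM with DMSO and 893 and 422 FPKM with BYBX. It fell by 3.80 on the log2 scale and was 3.06 higher with BYBX than with DMSO.

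**Figure D2:**
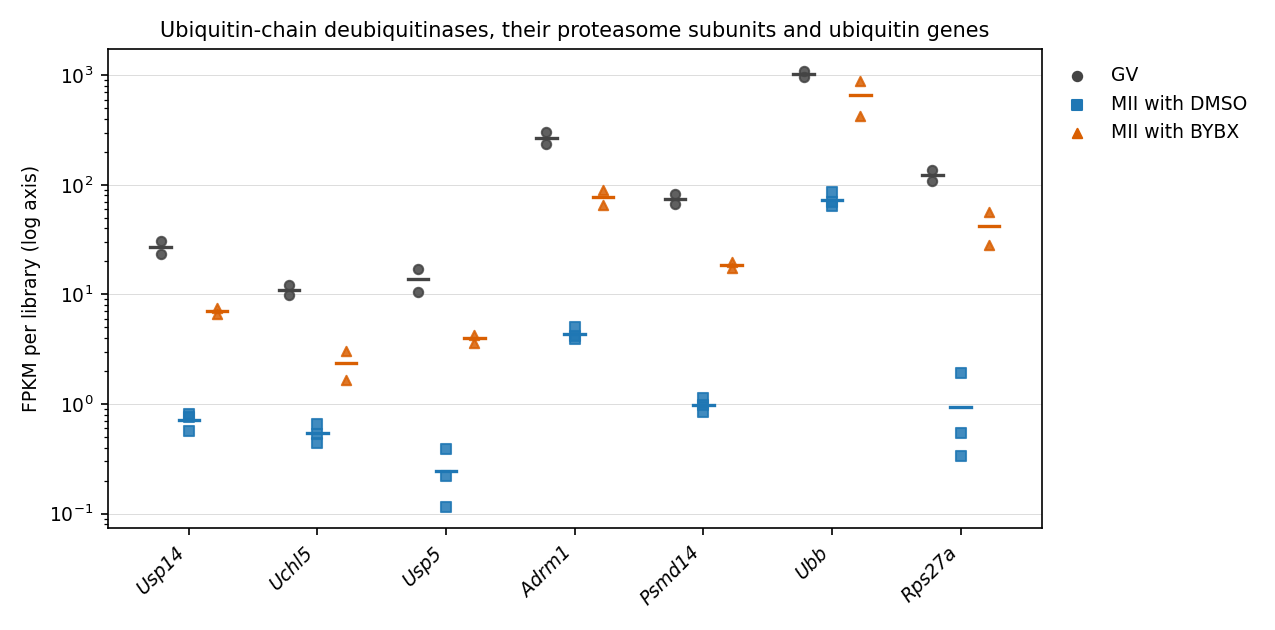
FPKM in each library (log axis) for Usp14, Uchl5 and Usp5, for the proteasome subunits Adrm1 and Psmd14, and for the ubiquitin genes Ubb and Rps27a; points are libraries and bars are group means. In every gene the 3 DMSO libraries lie below both BYBX libraries, and the mean of Psmd14 goes from 74.6 FPKM in GV to 0.989 FPKM with DMSO and 18.6 FPKM with BYBX. How often groups lie apart was not counted over all entries.

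In the UCH family 3 of 4 members fell, and Uchl3 did not pass the test. Uchl1 changed by -4.21 ± 0.30 on the log2 scale from GV to MII with DMSO (limma adjusted p = 1.24e-08) and was 3.14 ± 0.30 higher with BYBX than with DMSO. Uchl3 changed by -0.23 ± 0.28 (adjusted p = 0.436) and by 0.10 ± 0.28 (adjusted p = 0.745). Bap1, which removes ubiquitin from histone H2A with Asxl cofactors, was at 25.2 and 9.71 FPKM in GV, 2.77, 1.59 and 1.75 FPKM with DMSO and 5.49 and 8.01 FPKM with BYBX. Bap1 fell by 2.49 on the log2 scale. Of 10 genes listed as Bap1 partners, 6 were tested, 5 fell and 3 were higher with BYBX, beside 88.3% and 65.2% of all entries. The cofactor Asxl1 was at 26.3, 4.37 and 12.8 FPKM in the group means.

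The members that act on histones ranged from near loss to little change. Of 12 members in this group, 11 were tested, 10 fell, 7 were higher with BYBX than with DMSO and 5 were lower with BYBX than in GV. Over all entries these shares were 88.3%, 65.2% and 69.2%, and after median centering 8 of the 11 were higher and 1 lower from GV to MII with DMSO. Usp3, which removes ubiquitin from H2A, was at 37.7 and 22.7 FPKM in GV, 0.647, 0.922 and 0.893 FPKM with DMSO and 8.09 and 6.77 FPKM with BYBX. Usp16, an H2A deubiquitinase needed for chromosome segregation, was at 28.5 and 21.8 FPKM in GV, 12.4, 14.6 and 17.2 FPKM with DMSO and 19.9 and 15.5 FPKM with BYBX. Usp21, a further H2A deubiquitinase, was at 40.9 and 26.9 FPKM in GV, 28.9, 20.5 and 23.1 FPKM with DMSO and 31.7 and 35.4 FPKM with BYBX. At MII with DMSO, 2.72% of the GV mean remained for Usp3, 58.6% for Usp16 and 71.4% for Usp21, and a difference between Usp16 and Usp21 was not tested. Usp3 changed by -4.06 ± 0.25 on the log2 scale and Usp16 by -0.73 ± 0.26, and both passed the test, whereas Usp21 at -0.45 ± 0.27 did not (adjusted p = 0.126). Without the first GV library or the first DMSO library, Usp16 no longer passed (adjusted p = 0.115 and 0.0581), and without the second GV library Usp21 passed at -0.75 (adjusted p = 0.0364).

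Usp22, the deubiquitinase of the SAGA coactivator, fell by 1.63 on the log2 scale from 5.81 FPKM in GV. Its relatives Usp27x and Usp51, which use the same adaptors, fell by 1.55 and 0.50. With DMSO 20.5% of the GV mean was left for Usp22, 4.62% for Usp27x and 58.9% for Usp51. The fall of Usp27x, to 0.103 FPKM, is thus understated by log2(FPKM + 1). Usp51 passed only narrowly (adjusted p = 0.0497), and not without the first or the second GV library (adjusted p = 0.156 and 0.125). Of 6 genes listed for SAGA and its deubiquitinase module, 5 were tested, 3 fell and 2 were higher with BYBX, beside 88.3% and 65.2% of all entries. After median centering 4 of these 5 were higher and none lower from GV to MII with DMSO, and 3 were lower with BYBX than with DMSO. Usp36, a nucleolar enzyme, its relative Usp42 and Usp48 fell by 1.37, 2.10 and 2.15, and all 3 were higher with BYBX than with DMSO. Usp49, which acts on H2B and was singled out after its values were seen, was at 3.34 and 2.70 FPKM in GV, 1.85, 0.377 and 1.55 FPKM with DMSO and 4.66 and 3.07 FPKM with BYBX. It had the highest share of the GV mean with BYBX among tested members, 128%, but did not differ from GV beyond the spread (0.26 ± 0.32 on the log2 scale, adjusted p = 0.478). Usp44, linked to the spindle checkpoint, was at or below 0.103 FPKM in every library.

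Members with roles in DNA damage responses and the cell cycle had a median log2 difference of -1.21 from GV to MII with DMSO. Of 10 listed, 8 were tested, 7 fell and 3 were higher with BYBX (Usp11, Usp29 and Usp47), beside 88.3% and 65.2% of all entries. After median centering 6 of the 8 were higher from GV to MII with DMSO. Usp28 changed by -0.39 ± 0.26 (adjusted p = 0.172) and by 0.16 ± 0.26 with BYBX against DMSO (adjusted p = 0.593). Usp7, which stabilizes Mdm2 and p53, was at 56.8 and 44.7 FPKM in GV, 19.1, 24.9 and 25.8 FPKM with DMSO and 36.6 and 25.8 FPKM with BYBX. Its activator Gmps was at 42.1 FPKM in the GV mean, 0.795 FPKM with DMSO and 9.17 FPKM with BYBX, so Usp7 kept 45.9% of its GV level where its partner was nearly lost. Usp37, which acts on cyclin A, fell by 1.05 ± 0.26. Usp1, the Fanconi anemia pathway enzyme, was at 24.9 and 34.3 FPKM in GV and 6.87, 10.9 and 8.90 FPKM with DMSO, and fell by 1.64 on the log2 scale. Wdr48, the shared activator of Usp1, Usp12 and Usp46, was at 19.6, 2.61 and 5.68 FPKM in the group means, and Wdr20, which joins Usp12 and Usp46, at 97.9, 61.6 and 83.2 FPKM. Wdr48 fell by 2.44 and Wdr20 by 0.64 on the log2 scale.

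Members at endosomes, mitochondria and the endoplasmic reticulum (9, with Usp6nl and Usp10 counted here) all fell, 5 were higher with BYBX than with DMSO, and 8 were lower with BYBX than in GV, beside 88.3%, 65.2% and 69.2% of all entries. After median centering 4 of the 9 were higher and 2 lower from GV to MII with DMSO. Usp30, which opposes mitophagy at the outer mitochondrial membrane, was at 61.4 and 57.1 FPKM in GV, 5.95, 5.06 and 4.92 FPKM with DMSO and 16.9 and 16.2 FPKM with BYBX. Replicate values were close in each group, and the log2 differences were -3.26 ± 0.23 and 1.48 ± 0.23. Usp19, which has a form anchored in the endoplasmic reticulum, was at 53.1 and 32.4 FPKM in GV, 21.1, 22.4 and 24.9 FPKM with DMSO and 49.8 and 29.1 FPKM with BYBX. It fell by 0.84 ± 0.30 (adjusted p = 0.0167) and was 0.72 ± 0.30 higher with BYBX (adjusted p = 0.0472), while BYBX against GV gave -0.12 ± 0.33 (adjusted p = 0.751). The fall did not pass without the first GV library (-0.49, adjusted p = 0.208). Usp9x, a large enzyme with many trafficking substrates, was at 38.0 and 34.0 FPKM in GV, 18.0, 17.5 and 14.9 FPKM with DMSO and 16.9 and 22.4 FPKM with BYBX. It fell by 1.06 ± 0.25, and the BYBX and DMSO libraries overlapped (0.21 ± 0.25, adjusted p = 0.468). Usp8, an endosomal enzyme, fell by 2.48, Usp20 by 2.33, Usp32 by 1.83 and Usp33 by 1.24 on the log2 scale. With DMSO 9.64%, 2.26%, 18.0% and 38.4% of their GV means were left, so Usp20, at 0.105 FPKM, kept the least.

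The Otud family had 5 tested members, which all fell, and 4 of them were higher with BYBX, beside 88.3% and 65.2% of all entries. After median centering 4 of the 5 were higher in MII with DMSO than in GV and 1 was lower. Otud5, a regulator of interferon signaling, was at 24.2 and 31.0 FPKM in GV, 1.40, 2.35 and 2.79 FPKM with DMSO and 12.7 and 6.53 FPKM with BYBX. It fell by 3.19 ± 0.30 and was 1.70 ± 0.30 higher with BYBX. Otud3, Otud4, Otud6b and Otud1 fell by 1.46, 1.29, 1.27 and 0.63, and Otud1 did not pass without the second GV or the first DMSO library (adjusted p = 0.0936 and 0.0906). With DMSO 8.12% of the GV mean was left for Otud3, 35.7% for Otud4, 36.8% for Otud6b and 52.4% for Otud1. The remaining 9 tested members (Usp2, Usp24, Usp31, Usp34, Usp35, Usp38, Usp43, Usp53 and Usp54) all fell, and 6 of them were higher with BYBX than with DMSO. Their log2 differences from GV to MII with DMSO lay between -2.0 for Usp35 and -1.02 for Usp31. Usp35 kept 3.11% of its GV mean and Usp31 36.2%. These counts too stand beside 88.3% and 65.2% of all entries.

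In MII with BYBX against MII with DMSO, 32 of the 51 tested members were higher and none was lower (limma, with all 51 differences above 0), where 65.2% of all entries were higher and 0.0326% lower. The median log2 difference was 0.66 over the members and 0.84 over all entries, so here too the members as a list were close to the background. Among members of at least 10 FPKM in a group, the 8 largest differences, those of Usp4, Uchl1, Usp39, Usp14, Usp3, Usp5, Otud5 and Usp30, were all 8 of the largest falls, and the 8 members with the smallest differences, Uchl3, Usp28, Usp9x, Usp16, Usp33, Usp46, Usp7 and Usp15, included 5 of the 8 smallest falls under the same limit. The DMSO libraries are shared by both comparisons, so a value that is low in those libraries enters both. Differences of the last 8 ran from 0.10 for Uchl3 to 0.40 for Usp15, and none passed the test (adjusted p from 0.202 to 0.745).

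**Figure D3:**
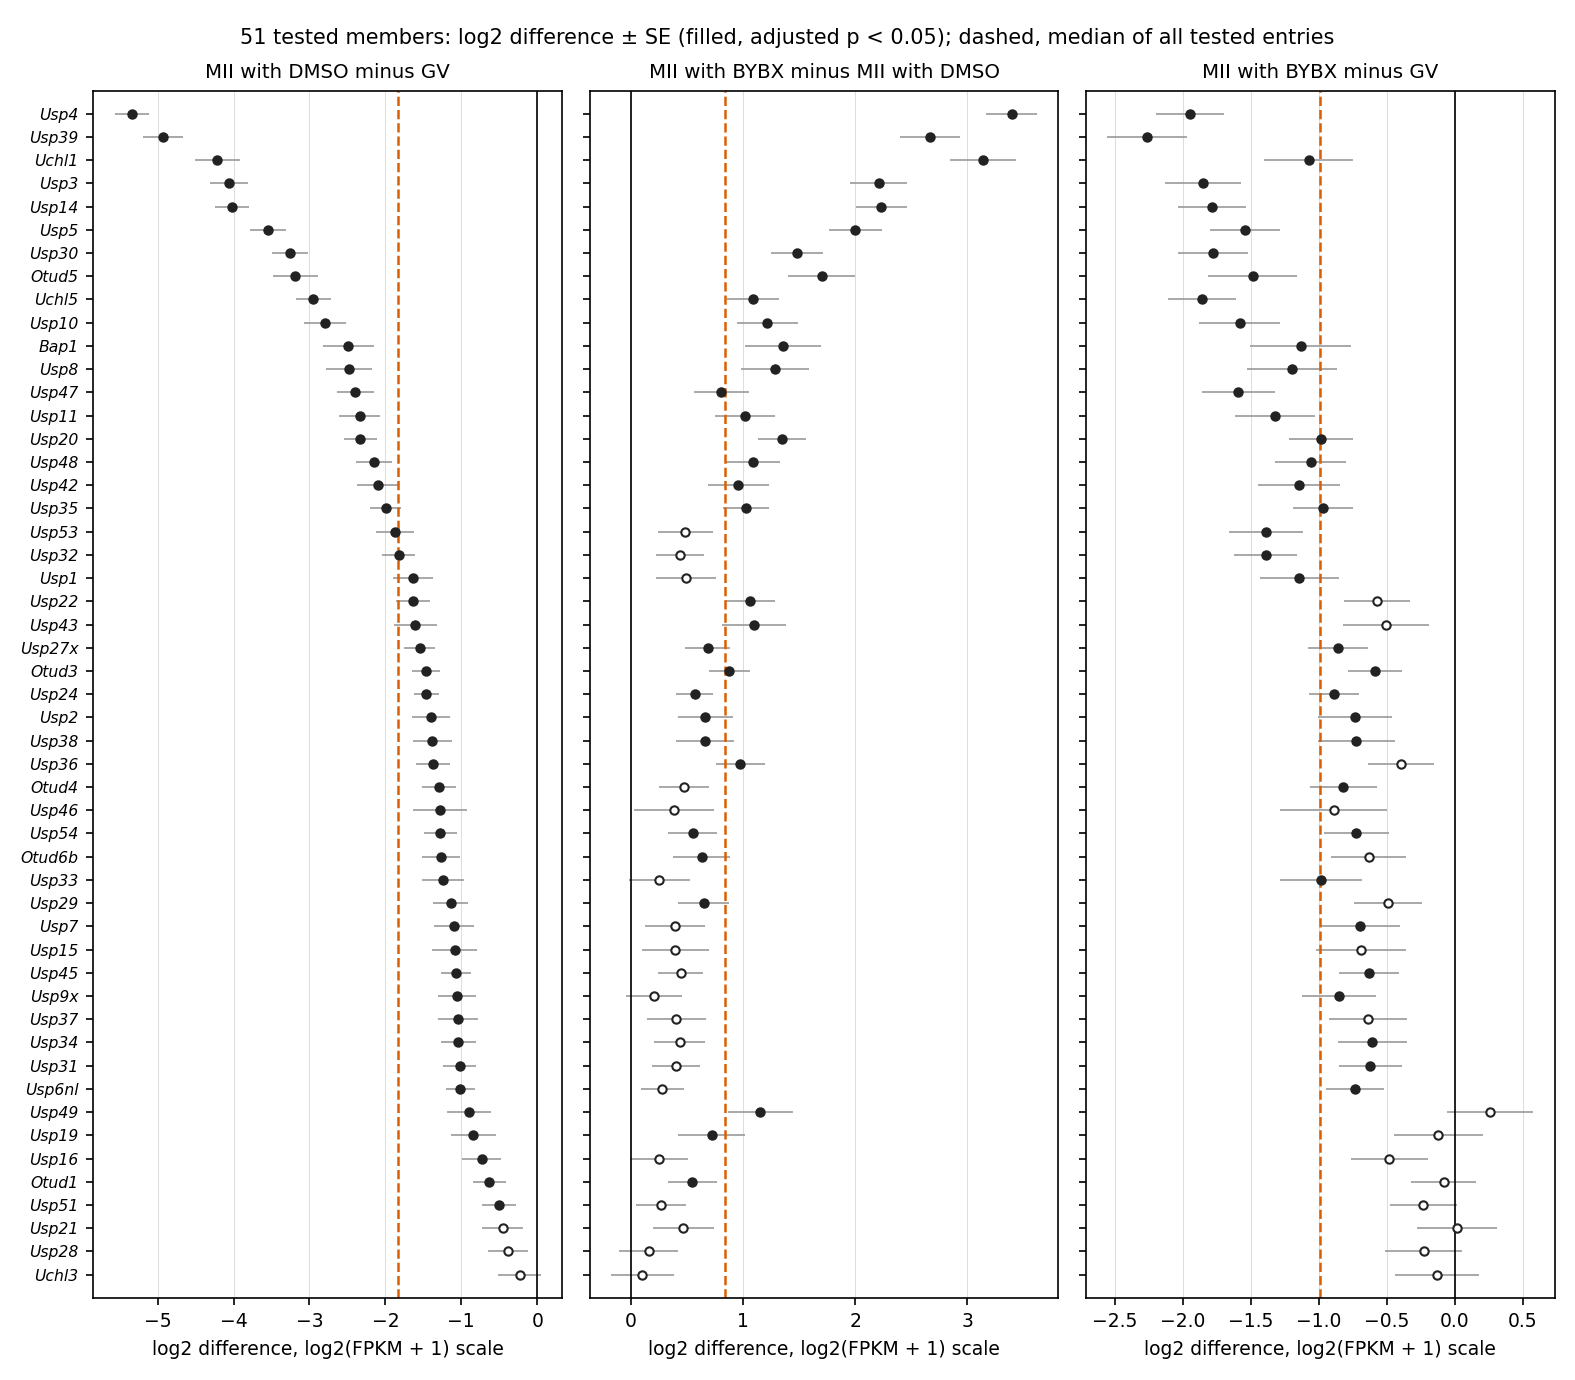
log2 difference ± SE on the log2(FPKM + 1) scale for the 51 tested members (rows, ordered by the fall from GV to MII with DMSO) in the 3 comparisons; filled points passed an adjusted p of 0.05, open points did not, and the dashed line is the median of all 9202 tested entries. Usp4, Usp39 and Uchl1 lie far from the dashed line in the first and second panels (-5.34, -4.93 and -4.21, then 3.40, 2.67 and 3.14), and Usp28 and Uchl3 lie near 0 in all 3 panels.

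In MII with BYBX against GV, 35 members were lower and none was higher (limma, 0 also at an unadjusted p under 0.05), beside 69.2% lower and 0.315% higher among all entries, and the median difference was -0.85 over the members and -0.99 over all entries. The first GV library was above the second for 40 of the 51 members. Without it the median difference was -0.67 over the members and -0.84 over all entries. Among members of at least 10 FPKM the largest differences were those of Usp39 (-2.26 ± 0.29), Usp4 (-1.94 ± 0.25) and Uchl5 (-1.86 ± 0.25). At the other end were Usp21 (0.02 ± 0.30, adjusted p = 0.964), Usp19 and Uchl3 (-0.13 ± 0.31, adjusted p = 0.719). The share of the GV mean present with BYBX ran from 19.0% to 128% with a median of 51.5%, against 0.520% to 85.1% with DMSO.

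How far these calls depend on scale was checked in 2 ways. When every library was set to the same total FPKM, 20 members were lower and 11 higher in MII with DMSO than in GV (49.5% and 23.3% of all entries), 4 were lower and 13 higher with BYBX than with DMSO (8.22% and 39.9%), and for BYBX against GV 6 were lower and 3 higher (13.3% and 5.3%). When libraries were centered on their median, the counts were 10 lower and 31 higher (26.7% and 48.8%), 26 lower and 6 higher (43.9% and 18.4%), and 6 lower and 8 higher (13.6% and 15.2%). Among members of at least 10 FPKM, the 8 largest falls in log2(FPKM + 1) were those of Usp4, Usp39, Uchl1, Usp3, Usp14, Usp5, Usp30 and Otud5. They passed the test in the same direction on all 3 scales, and so did the higher levels with BYBX of the first 6 of these genes. This list depends on the pseudocount. Uchl5, at -2.95, is not in it but kept 4.97% of its GV mean, against 5.30% for Uchl1, 7.89% for Otud5 and 8.96% for Usp30. Otud5 and Usp30 were higher with BYBX on the deposited and same-total scales but did not pass after centering (0.42 and 0.20, adjusted p = 0.217 and 0.358). From GV to MII with DMSO, 15 members had a negative difference on all 3 scales, namely these 8 and Uchl5, Usp10, Bap1, Usp8, Usp47, Usp11 and Usp20. A further 11 turned positive after centering only, namely Usp48, Usp42, Usp35, Usp53, Usp32, Usp22, Usp43, Usp27x, Otud3, Usp24 and Usp36. The other 25 turned positive on both scales, namely Usp1, Usp2, Usp38, Otud4, Usp46, Usp54, Otud6b, Usp33, Usp29, Usp7, Usp15, Usp45, Usp9x, Usp37, Usp34, Usp31, Usp6nl, Usp49, Usp19, Usp16, Otud1, Usp51, Usp21, Usp28 and Uchl3. For BYBX against DMSO, 11 members were above 0 on all 3 scales, namely the same 8 and Bap1, Usp8 and Usp20, and 15 turned negative after centering only, namely Uchl5, Usp10, Usp11, Usp22, Usp24, Usp27x, Usp29, Usp35, Usp36, Usp42, Usp43, Usp47, Usp48, Usp49 and Otud3. The other 25 turned negative on both scales. Of these, Usp2, Usp19, Usp38, Usp54, Otud1 and Otud6b had been called higher with BYBX on the deposited scale. The rest were Otud4, Uchl3, Usp1, Usp15, Usp16, Usp21, Usp28, Usp31, Usp32, Usp33, Usp34, Usp37, Usp45, Usp46, Usp51, Usp53, Usp6nl, Usp7 and Usp9x. Above 0 in this comparison were 26 members and 5826 of 9202 entries with equal totals, and 11 and 2896 after centering. Among members of at least 10 FPKM, the 8 with the smallest falls turned on both scales. Uchl3, Usp28, Usp21, Usp16, Usp19, Usp37 and Usp9x were higher in MII with DMSO than in GV by 0.71 to 1.62 with equal totals and passed the test there, as they did after centering. Relative to the rest of the mRNA these 7 genes therefore took a larger share at MII, and on the scale of the spike-in they were lower or did not pass the test.

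Ratios between related members within a library do not depend on the scaling of that library where both members are well above the pseudocount of 1 FPKM. For a member near or below 1 FPKM the pseudocount sets much of the ratio. With DMSO this holds for Usp35, at 0.0173 to 0.174 FPKM, and for Usp27x, at 0.0236 to 0.194 FPKM. Such log2 ratios were compared for 15 pairs. Usp4 against Usp15, its closest relative, was 0.29 and 0.70 in GV, -4.16, -3.63 and -3.48 with DMSO and -0.51 and -1.01 with BYBX. Usp4 mRNA was thus the more abundant of the pair in GV and the scarcer at MII, and the groups did not overlap. The change from GV to DMSO was -4.25 and that from DMSO to BYBX 3.0. Uchl1 against Uchl3 was 3.84 and 2.89 in GV, -0.72, -0.40 and -0.71 with DMSO and 2.55 and 2.29 with BYBX, a change of -3.98 from GV to DMSO and of 3.04 from DMSO to BYBX. With BYBX this ratio lay below both GV libraries but kept its sign. The same changes were -3.0 and 2.38 for Usp4 against Usp11. Usp11 against Usp15 changed by -1.25, from -1.66 and -1.65 in GV to between -3.13 and -2.63 with DMSO. Usp20 against Usp33, a related pair that binds the von Hippel-Lindau protein, went from -1.51 and -1.55 to between -2.84 and -2.20 with DMSO and was -1.09 and -1.97 with BYBX, values that overlap the GV range.

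Usp22 against Usp51 was 1.27 and 0.94 in GV, between -0.56 and 0.32 with DMSO, and 0.40 and 1.14 with BYBX, a change of -1.13 from GV to DMSO. Usp2 against Usp21 was 1.76 and 2.18 in GV, between 0.55 and 1.27 with DMSO, and 1.40 and 1.03 with BYBX, a change of -0.94. In both pairs the GV and DMSO libraries did not overlap. The other pairs changed by at most 0.73 in size. Usp22 against Usp27x was 1.40 and 0.75 in GV, between 0.68 and 1.2 with DMSO, and 0.89 and 1.83 with BYBX. Usp22 kept 20.5% of its GV mean with DMSO and Usp27x 4.62%, a difference that this ratio does not show because of the pseudocount. Usp37 against Usp29 was 1.81 in the GV mean, 1.90 with DMSO and 1.66 with BYBX. Usp16 against Usp45 changed by 0.34, and Usp36 against Usp42 by 0.73. With 2 libraries against 3, an exact two-sided permutation test cannot give a p below 0.1, and with 2 against 2 not below 0.333. Usp4 against Usp15, Uchl1 against Uchl3, Usp4 against Usp11, Usp20 against Usp33 and Usp35 against Usp38 had the lowest possible p, 0.1, both from GV to DMSO and from DMSO to BYBX, and Usp11 against Usp15, Usp22 against Usp51, Usp2 against Usp21, Usp31 against Usp43 and Usp36 against Usp42 had it from GV to DMSO only, with Benjamini-Hochberg adjusted values over the 15 pairs of 0.15 and 0.3 (exact permutation test).

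**Figure D4:**
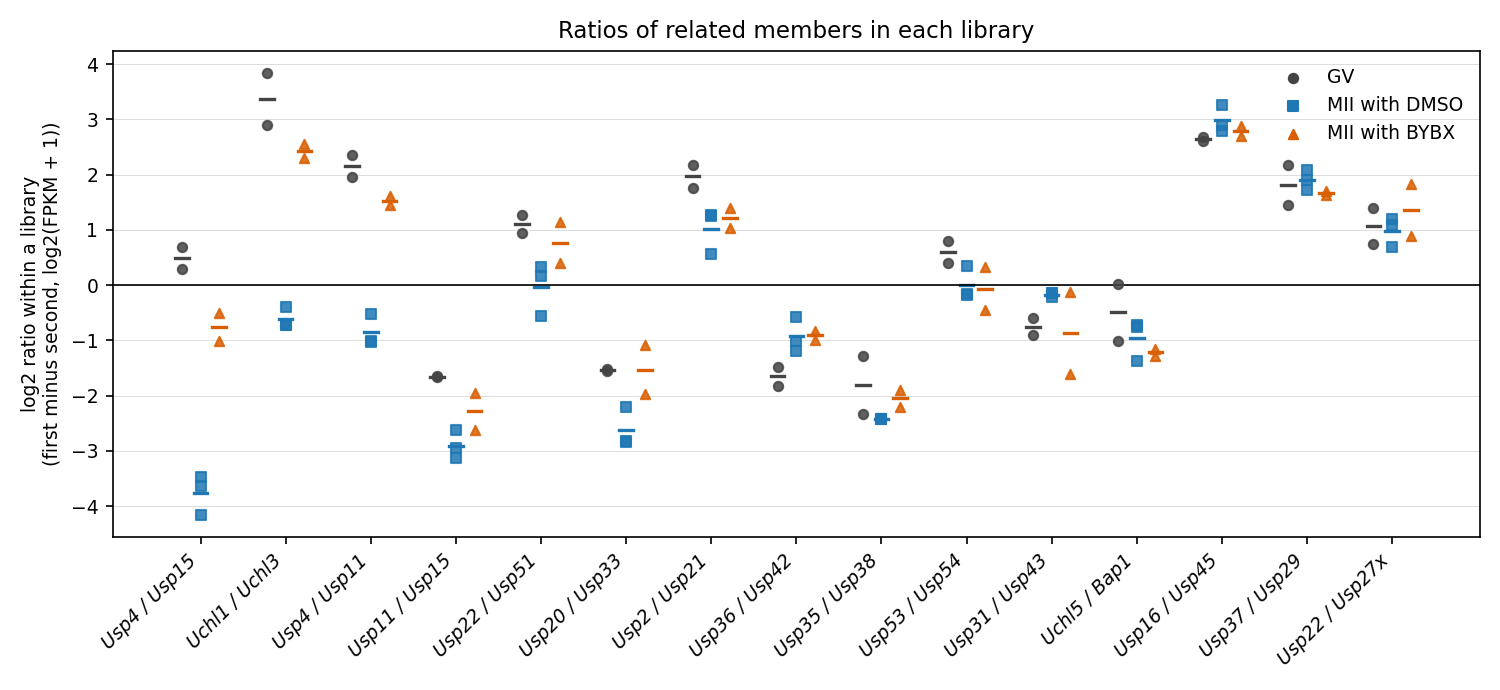
log2 ratio within each library, on the log2(FPKM + 1) scale, for 15 pairs of related members (first gene over second), ordered by the size of the change from GV to MII with DMSO; points are libraries and bars are group means. Usp4 over Usp15 drops from 0.49 in the GV mean to -3.76 with DMSO and is -0.76 with BYBX, and Uchl1 over Uchl3 goes from 3.37 to -0.61 and 2.42. The groups of Usp22 over Usp27x overlap on this scale, where Usp27x is at or below 0.194 FPKM with DMSO and the pseudocount narrows the ratio.

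Among members with the rG4 motif, the median log2 difference from GV to MII with DMSO was -1.64 (10 tested members), and it was -1.40 over the 41 without a motif. With BYBX against DMSO the medians were 0.91 and 0.66, and with BYBX against GV they were -0.94 and -0.82. Among members with a motif the GV to DMSO differences ran from -3.54 for Usp5 to -0.84 for Usp19, and Usp4, Usp39, Uchl1, Usp3 and Usp14 had no match in the transcript searched. These medians are given as a description, with no test.

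The 17 members below the filter were Otud6a, Otud7a, Otud7b, Usp12, Usp13, Usp17la, Usp17lb, Usp17lc, Usp17ld, Usp17le, Usp18, Usp25, Usp26, Usp40, Usp44, Usp50 and Usp9y. Of these, 10 stood at or below 0.1 FPKM in every library, namely Otud6a, Otud7a, the 5 Usp17l genes, Usp18, Usp25 and Usp9y. Usp17la, Usp17ld and the Y-linked Usp9y were listed at 0 in all 7 libraries. The Usp17l genes are near-identical copies whose reads may be split or lost, so their values are uncertain. Usp18, which removes the interferon-induced modifier Isg15, was at most 0.0202 FPKM. Usp12, the closest relative of Usp46, was at 1.68 and 1.97 FPKM in GV, at or below 0.0368 FPKM with DMSO and at 0.558 and 0.649 FPKM with BYBX, where Usp46 was still at 29.9 FPKM or more in every library. Otud7b was at 0.957 and 1.21 FPKM in GV and at or below 0.203 FPKM with DMSO.

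Deubiquitinases of other families and SUMO proteases were counted the same way. Of 24 listed genes with other symbols (JAMM metalloproteases, Josephins and further ovarian tumor and other cysteine proteases), 19 were tested, 16 fell from GV to MII with DMSO, 13 were higher with BYBX than with DMSO and 16 were lower with BYBX than in GV, with medians of -2.18, 0.92 and -1.35. The shares over all entries were 88.3%, 65.2% and 69.2%. From GV to MII with DMSO this list had 4 higher and 11 lower with equal totals, and 5 higher and 6 lower after centering. Of 10 SUMO proteases, a list that holds Uspl1, 10 fell, 6 were higher with BYBX and 9 were lower with BYBX than in GV, with medians of -1.57, 0.70 and -0.86, beside the same shares. After centering 7 of them were higher and 1 lower from GV to MII with DMSO, and in BYBX against DMSO 5 were lower and none was higher. In both lists none changed in the opposite direction on the deposited scale.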

How the data were processed

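The 7 Smart-seq2 libraries were 2 of GV oocytes, 3 of MII oocytes with DMSO and 2 of MII oocytes with BYBX. The authors trimmed reads with Trim Galore 0.6.7, aligned them to mm10 with HISAT2 2.2.1 and estimated FPKM with Cufflinks 2.2.1 on UCSC gene models. The deposited FPKM values had been scaled by the authors with the ERCC spike-in, and batches were brought together through their GV samples. The scaling factors and the batch of each library are not given in the sources used here. FPKM keeps no read counts, so depth is unknown and precision rests on the libraries.

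Values were taken as log2(FPKM + 1). A limma 3.58.1 model (R 4.3.3, eBayes with an intensity trend) was fitted to all 7 libraries with 3 group means and 4 residual degrees of freedom, over the 9202 entries with a mean of the group means of at least 1 FPKM. The step was tested on simulated data. Entries were called at an adjusted p (Benjamini-Hochberg) under 0.05, whatever the fold. The 4 entries with a missing value, none of them a member, were left out. Members named with a log2 difference had at least 10 FPKM in a group and were the 8 at each end of the first and second comparisons and the 3 at each end of BYBX against GV. The 5 of highest mean level and related pairs were also named, and other members are given by role. Members and lists were chosen with earlier results of these data known. Transcripts and coordinates are from GENCODE vM21 (GRCm38). Alternatives were another pseudocount (0.1), other filters (5 FPKM, none), equal totals, median centering, fits on 2 groups, a replicate block, no trend, at least 2-fold, and each library left out.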

Additional observations from a re-analysis of the deposited data

How the results depend on the processing

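The scaling decided most counts. With equal total FPKM, MII with DMSO against GV gave 20 members lower and 11 higher with a median of -0.074, BYBX against DMSO 4 lower and 13 higher with a median of 0.034, and BYBX against GV 6 lower and 3 higher with a median of 0.014. After median centering the counts were 10 and 31 (median 0.84), 26 and 6 (median -0.61), and 6 and 8 (median 0.17). Over all entries the medians were -0.56, 0.34 and -0.17 with equal totals and 0.47, -0.44 and 0.04 after centering. On the deposited scale the members' sum with BYBX was 221% of that with DMSO, and 184% without the 5 members of highest mean FPKM. Taken as a percent of all listed FPKM, the members' sum in MII with DMSO was 86.9% of that in GV, with BYBX 118% of that with DMSO and 103% of that in GV. Without those 5 members the percent was 0.173% with DMSO and 0.171% with BYBX.

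A filter at 5 FPKM tested 32 members among 5508 entries. It left 29 members lower in the first comparison and 19 higher in the second, beside 4842 and 3686 of all entries. The medians were -1.75 in the first comparison and -1.07 for BYBX against GV. The median was -1.91 and 0.90 in the first and second comparisons with a pseudocount of 0.1, where the smaller constant widens differences of low values. Requiring at least 2-fold gave 19 members higher in BYBX against DMSO and 19 lower in BYBX against GV, beside 3875 and 4529 of all 9202 entries. Leaving out each library, between 23 and 37 members were lower in BYBX against GV, the lowest without the first GV library.

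Between them the 2 scalings turned the sign of 36 members in the first comparison and 40 in the second, as listed above, and of 30 in BYBX against GV. Of those at the ends of the order, from GV to MII with DMSO, the values with equal totals and after centering were 1.62 and 2.07 for Uchl3, 1.47 and 1.92 for Usp28, 1.37 and 1.85 for Usp21, 1.06 and 1.57 for Usp16, 0.99 and 1.46 for Usp19, 0.71 and 1.26 for Usp37, 0.76 and 1.25 for Usp9x, and 0.72 and 1.22 for Usp15. For BYBX against DMSO they were -0.78 and -1.17 for Uchl3, -0.72 and -1.12 for Usp28, -0.65 and -1.07 for Usp9x, -0.60 and -1.03 for Usp16, -0.54 and -1.02 for Usp33, -0.49 and -0.89 for Usp46, -0.47 and -0.88 for Usp7, and -0.46 and -0.88 for Usp15. For BYBX against GV they were 0.84 and 0.90 for Usp19 and 0.84 and 0.90 for Uchl3. Leaving out each library, Uchl3 ranged from -0.47 to 0.0047 (DMSO against GV), -0.087 to 0.30 (BYBX against DMSO) and -0.37 to 0.11 (BYBX against GV), Usp28 from -0.015 to 0.33 (BYBX against DMSO), and Usp21 from -0.28 to 0.31 and Usp19 from -0.50 to 0.26 (both BYBX against GV).

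With the replicate block, 47 members were lower from GV to MII with DMSO, 23 were higher with BYBX and 29 were lower in BYBX against GV. Over all 9202 entries these counts were 7777, 5266 and 5962. The labels give no shared batch or animal behind the numbers. Same-numbered libraries deviated together in GV and DMSO (correlations across genes of 0.49 and 0.28) but not in DMSO and BYBX (-0.60 and -0.35) or in GV and BYBX (-0.33). A crossed replicate block, chosen after seeing the data, gave 40 members lower in BYBX against GV, beside 6688 of all entries. The results with no intensity trend, with only the compared groups and with no filter stayed within 1.5 times the counts above. Limits are the 2 or 3 libraries per group, an unknown depth and unstated scaling factors.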
